A study of Caenorhabditis elegans with 2 samples.

Results

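The adenine nucleotide translocator genes of the nematode Caenorhabditis elegans were examined as places where the protein ZK546.5 was called on the genome by chromatin immunoprecipitation with sequencing (ChIP-seq). The set was ant-1.1, ant-1.2, ant-1.3 and ant-1.4, which made up 4 of 19973 nuclear protein-coding genes in the annotation. They were selected by name, but with their calls already known, so the calls nearest to them are given as a description and carry no test. The animals were third-stage (L3) larvae of strain OP231, of both sexes and studied whole, so the calls average over all tissues. The strain's genotype is unc-119(ed3) III with the transgene wgIs231, which expresses ZK546.5 with a C-terminal GFP-FLAG tag, and the genotype is shared by every sample. There were 2 biological replicates of this 1 group and no second condition, and the same control file was used for both.

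Adenine nucleotide translocators are carrier proteins of the mitochondrial inner membrane. They let ADP into the matrix and ATP out of it, so that ATP made by ATP synthase reaches the rest of the cell. They belong to the large mitochondrial carrier family, whose other members move phosphate, metabolites and cofactors across the same membrane, and they are imported from the cytosol through translocases of the outer and inner membranes. Phosphate for ATP synthesis enters through the phosphate carrier, another protein of that family. In C. elegans, ant-1.1 is known as the broadly expressed translocator, needed for development.

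The 4 proteins were close relatives. Translated from the annotated coding sequences, ANT-1.3 and ANT-1.4 were each 313 residues long and shared 310 of them (99.0% identity). ANT-1.1, of 300 residues, was 86.9% identical to ANT-1.3 and 87.5% identical to ANT-1.4. ANT-1.2, also of 300 residues, stood farthest from the others, at 78.6% to 79.7% identity. The gene models differed more than the proteins. The coding sequence of ant-1.1 is split by 3 introns and those of ant-1.3 and ant-1.4 by 2 each, whereas ant-1.2 has none and no annotated untranslated exon. The annotated 5′ end of ant-1.2 is thus its start codon, so distances and upstream sequences for it are counted from there. Each gene has 1 annotated transcript.

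The sequences upstream of the genes were less alike than the coding sequences. Over the 100 bases before the 5′ end, ant-1.1 had 48 identical bases with ant-1.2, 53 with ant-1.3 and 57 with ant-1.4. The most alike were ant-1.3 and ant-1.4, with 70, and ant-1.2 had 59 and 58 with these. No count for unrelated upstream sequences is given, so whether these pairs were more alike than any other pair was not tested. These 100 bases are shown for ant-1.1, whose call had its summit in them, and for ant-1.3 and ant-1.4, the closest relatives, which had none there. They are written 5′ to 3′ on the strand of each gene, from build ce11, at chrIII:13463063-13463162 (plus strand), chrIV:9709306-9709405 (minus strand) and chrIV:8460309-8460408 (minus strand). Capitals mark any of the 4 words taken up further on (ACGCAG or GACGCA or CGAGAC or ACCGTA, on either strand).
ant-1.1: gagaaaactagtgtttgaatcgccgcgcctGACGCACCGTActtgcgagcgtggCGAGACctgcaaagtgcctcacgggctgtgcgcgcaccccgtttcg
ant-1.3: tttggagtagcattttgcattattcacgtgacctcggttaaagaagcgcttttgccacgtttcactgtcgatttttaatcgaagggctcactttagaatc
ant-1.4: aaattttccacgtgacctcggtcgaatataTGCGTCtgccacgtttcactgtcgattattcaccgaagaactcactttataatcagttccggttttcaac

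In the ant-1.1 sequence the pooled summit is base 43, and the words GACGCA and ACCGTA overlap by their shared A and end 2 bases before it. The stretch was rich in G and C, at 62% over the 100 bases, compared with 41% for ant-1.3 and 42% for ant-1.4. The longest run of bases that ant-1.3 and ant-1.4 shared anywhere in 1000 upstream bases was TGCCACGTTTCACTGTCGATT, of 21 bases, which starts 48 bases before the 5′ end of ant-1.3 and 64 before that of ant-1.4. The longest run shared by ant-1.1 and any of the others there was 12 bases. Within the genes themselves the longest exact run was 50 bases, between ant-1.3 and ant-1.4, and at most 23 bases between ant-1.1 and any other. No source used here gave the read length, and whether reads from ant-1.3 and ant-1.4 were confused was not tested.

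A strong call lay at ant-1.1 and at none of its paralogues. The submitters' set of 261 peaks, thresholded by the irreproducible discovery rate (IDR, a measure of how well ranks repeat between replicates), placed a summit less than 1000 bp from the 5′ end for 1 of the 4 genes. For comparison, 1.43% of all nuclear protein-coding genes had one (285 of 19973). Since the genes were chosen with these calls known, nothing is read from that difference. The 4 genes are taken in turn below, with the deposited signal value, which is the caller's own measure of a call and has a different scale in each list. The pooled list held 30000 calls, as did those of both replicates, a fixed number, so their weaker part was not selected for strength. No file gave a number of reads, so the depth behind these calls is unknown.

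The gene ant-1.1 (T27E9.1, WBGene00006439) lies on chromosome III from 13463163 to 13464652 on the plus strand. Its strongest call had a signal of 241 in replicate 1, 398 in replicate 2 and 634 in the pooled list. These were the calls of rank 35, 18 and 24 in the respective lists, so both replicates placed it among their strongest. The summit was 55 bp upstream of the 5′ end in replicate 1 and 58 bp upstream in replicate 2 and in the pooled list, at 13463105, so the replicates agreed to within 3 bp. The 5′ untranslated exon sequence is 68 bases long, which puts the pooled summit 126 bp before the start codon. The pooled interval ran from 13462944 to 13463263, in intergenic sequence and the first exon. Its width was 320 bp, against 344 bp for 99.7% of pooled calls.

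Within the pooled list the ant-1.1 signal was 12.3 times that of the weakest thresholded peak, 51.5, and 33.8 times the median strongest call over protein-coding genes with a call, 18.8. The multiple of that median was 19.3 in replicate 1 and 41.8 in replicate 2. Of the 9767 protein-coding genes with a pooled call within 1000 bp, 33 had a stronger one. In replicate 1 the number with a stronger one was 34 and in replicate 2 it was 29. Blastn found no other match in the genome to the 320 bp under this call.

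The sequence upstream of ant-1.1 is also the upstream sequence of another gene of mitochondrial energy metabolism. T27E9.2, which RefSeq annotates as subunit 6 of the cytochrome b-c1 complex (complex III of the respiratory chain), is transcribed in the opposite direction, with 578 bp between the genes. The pooled summit was 521 bp upstream of its 5′ end, and so was nearer to ant-1.1. It was also 867 bp upstream of abcf-2, which encodes a protein with an ABC transporter domain. Peak position alone does not assign the call to any of these genes.

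A second thresholded peak sat at the other end of ant-1.1. Its signal was 51.3 in replicate 1, 37.1 in replicate 2 and 87.7 in the pooled list, at ranks 101, 203 and 128. The pooled summit, at 13464637, was 1474 bp downstream of the 5′ end and 15 bp before the annotated 3′ end, in the 3′ untranslated sequence, and the replicate summits were each 7 bp from it. Both replicates held this call, and the promoter call was 7.23 times as strong in the pooled list, 4.70 times in replicate 1 and 10.7 times in replicate 2. The same summit was 183 bp upstream of kel-3, a gene with a BTB domain that starts just beyond ant-1.1 on the same strand. It was also 50 bp past the 3′ end of cdk-5, a cyclin-dependent kinase gene on the other strand. Another thresholded peak lay at the 5′ end of cdk-5, 66 bp upstream of it and 3245 bp from that of ant-1.1, with a pooled signal of 121 (rank 92).

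Separate thresholded summits within 1000 bp of the 5′ end and of the 3′ end were found at 18 of 19973 protein-coding genes, ant-1.1 among them. A thresholded summit within 1000 bp of the 5′ end was found at 285 genes (1.43%), and of the 3′ end at 138 (0.691%). The ant-1.1 summits were 1532 bp apart, and 36 of the 235 nuclear thresholded summits (15.3%) had another within 2000 bp. Weaker calls were also present in and beyond the gene. A pooled call of signal 23.8 (rank 4810) lay 594 bp downstream of the 5′ end, in an intron. Replicate 1 had a call 679 bp downstream (signal 19.2, rank 2040) and replicate 2 had none within the gene between the end peaks. The interval of that pooled call, which takes in coding sequence, matched 4 other places in the genome. The longest of these was 343 bases of alignment at 68.5% identity, inside ant-1.4. Beyond the 3′ end a pooled call of signal 25.4 (rank 3562) lay 29 bp inside kel-3, in its 5′ untranslated sequence. The same base is in the coding sequence of cdk-5 on the other strand. Replicate 2 had a summit at that base (signal 15.3, rank 2352).

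**Figure D1:**
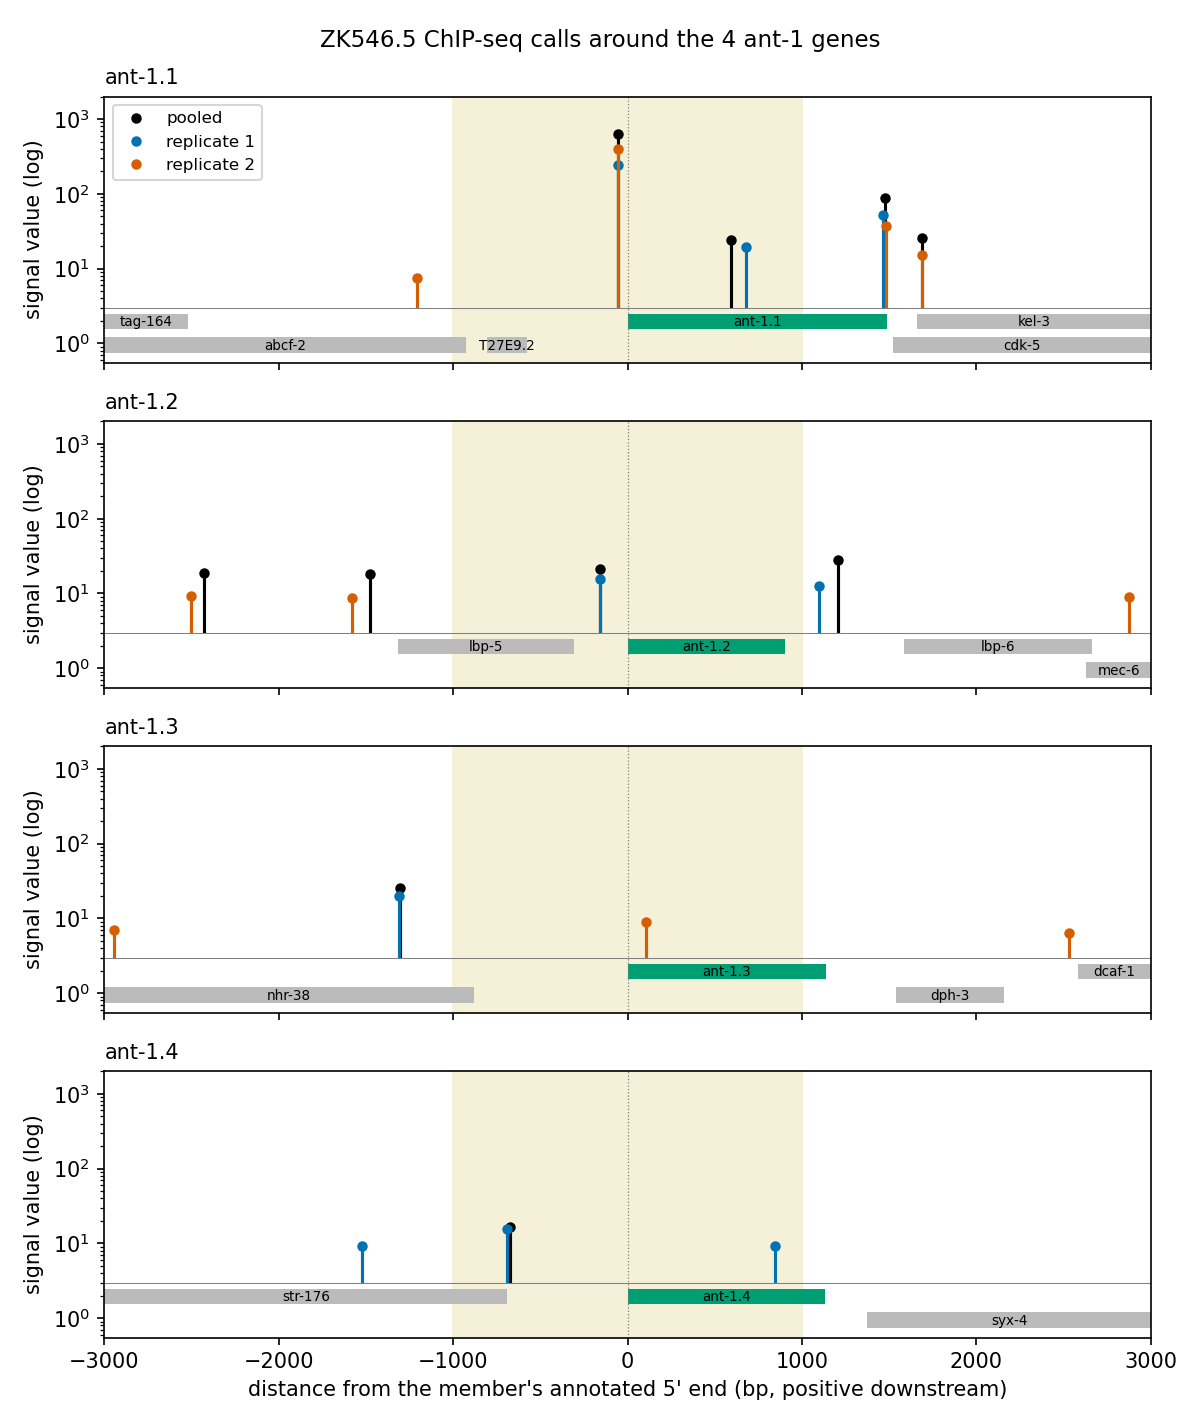
Calls with a summit within 3000 bp of the annotated 5′ end of each ant-1 gene, drawn at their distance from it in bp (positive downstream), with the deposited signal value on a log axis. Black, blue and orange stems are the pooled, replicate 1 and replicate 2 lists, whose scales differ, and shading marks 1000 bp on each side. Bars below are protein-coding genes, the upper row on the strand of the ant-1 gene (green) and the lower row on the other strand. The ant-1.1 promoter stems reach 241, 398 and 634, and no pooled stem in the other 3 panels exceeds 27.7.

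Calls at the other 3 genes were weak, and none was found at the same place in both replicates. Any pooled call within 1000 bp, however weak, was present at 3 of the 4 genes, against 48.9% of nuclear protein-coding genes (9767 of 19973). In replicate 1 the count was also 3 of 4, against 49.6% of genes, and in replicate 2 it was 2 of 4, against 49.1%. A call in both replicate lists was present at 1 of the 4, ant-1.1, and at 28.5% of protein-coding genes (5689). A call of this kind is therefore common in the genome.

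The gene ant-1.2 (W02D3.6, WBGene00007057) lies on chromosome I from 6730057 to 6730959 on the minus strand. It had a call 160 bp upstream of its 5′ end, at 6731119, in replicate 1 (signal 15.7, rank 5297) and in the pooled list (signal 21.1, rank 7951). Replicate 2 had no call within 1000 bp. The pooled value was 1.12 times the median over protein-coding genes with a call, and the replicate 1 value 1.26 times. The ant-1.1 value was 30.1 times as high in the pooled list and 15.3 times in replicate 1. The summit was in the 307 bp between ant-1.2 and lbp-5, a gene of the lipid-binding protein family that ends 148 bp from it. A stronger pooled call, of signal 27.7 (rank 2327), lay 1209 bp downstream of the 5′ end and so outside the 1000 bp. It was 307 bp past the 3′ end of ant-1.2 and 374 bp upstream of lbp-6, another gene of that family, and it was the strongest pooled call within 3000 bp of the ant-1.2 5′ end. Replicate 1 had a call 1095 bp downstream (signal 12.5, rank 12350). In replicate 2 the nearest call to the 5′ end was 1579 bp upstream. The interval of the pooled call 160 bp upstream had 10 other blastn matches in the genome, the longest over 115 bases at 70.4% identity. That of the pooled call by lbp-6 had 12, the longest over 75 bases at 74.7% identity. The part of repeated sequence in these calls was not tested.

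The gene ant-1.3 (K01H12.2, WBGene00010485) lies on chromosome IV from 9708168 to 9709305 on the minus strand. No pooled and no replicate 1 call came within 1000 bp of its 5′ end. Replicate 2 had 1 call there, 103 bp downstream in an intron, with a signal of 8.84 (rank 14416), which was 0.929 of the median over protein-coding genes with a call in that list. The nearest pooled call was 1307 bp upstream, with a signal of 25.6 (rank 3452), and replicate 1 had it at 1308 bp (signal 19.9, rank 1702). That position is 425 bp inside nhr-38, a nuclear hormone receptor gene transcribed in the opposite direction, in an intron. The sequence between ant-1.3 and nhr-38, 881 bp long, held no summit in any list.

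The gene ant-1.4 (T01B11.4, WBGene00020140) lies on chromosome IV from 8459178 to 8460308 on the minus strand. Its strongest call was 690 bp upstream in replicate 1 (signal 15.6, rank 5567) and 677 bp upstream in the pooled list (signal 16.3, rank 18102). Replicate 2 had no call within 3000 bp. The call was 0.870 of the median over protein-coding genes with a call in the pooled list and 1.25 times that median in replicate 1, so the lists placed it on opposite sides of the median. The ant-1.1 value was 38.8 times as high in the pooled list and 15.5 times in replicate 1. The pooled summit, at 8460985, was 14 bp past the 3′ end of str-176, the next gene upstream on the same strand. The interval under it had 23 other blastn matches in the genome, the longest over 134 bases at 82.1% identity, and the part of repeated sequence in this call was not tested. A further replicate 1 call lay 847 bp downstream, in the coding sequence, near the end of that list (signal 9.22, rank 25768 of 30000).

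The order of the pooled signal was therefore ant-1.1, ant-1.2 and ant-1.4, with ant-1.3 having no value. In replicate 1 the signal was 15.7 for ant-1.2 and 15.6 for ant-1.4. Neither had a value in replicate 2, so their order has no replicate check. The distance of 1000 bp decided which calls counted. Inside it was the pooled ant-1.4 call at 677 bp (signal 16.3). Outside it were stronger pooled calls, for ant-1.2 at 1209 bp (27.7) and for ant-1.3 at 1307 bp (25.6).

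**Figure D2:**
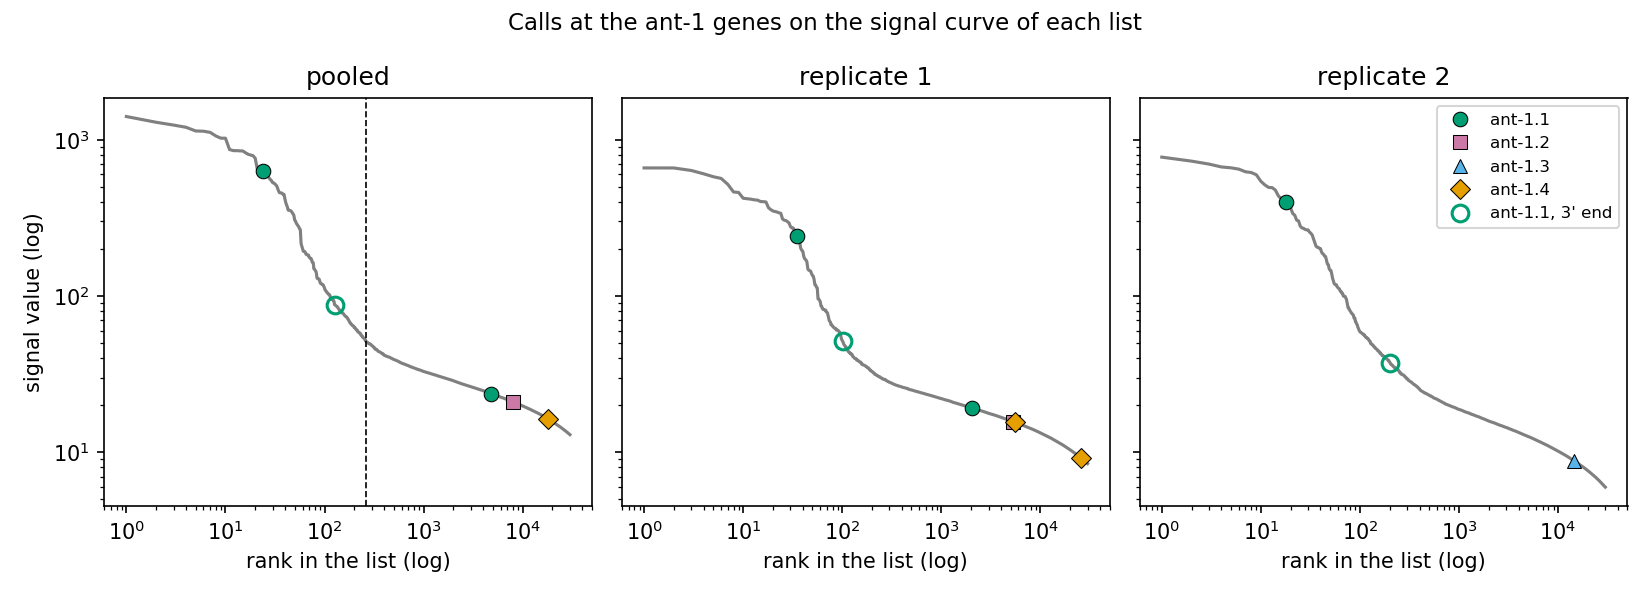
Signal value against rank in the pooled, replicate 1 and replicate 2 lists, both on log axes, with all 30000 calls as a grey line and the calls within 1000 bp of an ant-1 gene as symbols. The open circle is the call at the 3′ end of ant-1.1, and the dashed line in the pooled panel is the number of thresholded peaks, 261. The ant-1.1 promoter call sits on the steep upper part of each curve (ranks 24, 35 and 18), and the symbols of the other genes sit on the long weak tail.

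The base composition of the summits also differed between the genes. In 200 bp around the pooled summit, GC content was 54% at the ant-1.1 promoter call, higher than at 216 of the 235 nuclear thresholded summits, whose median was 42%. It was 38.5% at the ant-1.1 3′ call, 26% at the ant-1.2 upstream call and 24% at the ant-1.4 call. The median over the other nuclear pooled calls was 30.5%. The sequence before the genes gave a different order. GC content over the 300 bases upstream was 40.7% for ant-1.1, 39.3% for ant-1.4, 31.7% for ant-1.3 and 28.3% for ant-1.2, against a median of 33.3% over all protein-coding genes. The values for ant-1.1 and ant-1.4 were above those of 88.4% and 83.7% of genes.

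Short words that had been frequent under the thresholded summits in earlier work on these data were looked for on both strands. The 100 bp around the ant-1.1 promoter summit held 3 of the 4 words at the positions marked above. They were GACGCA, which ends inside the next word, then ACCGTA, which lies just before the summit, and downstream of it CGAGAC. The remaining word, ACGCAG, was absent. GACGCA occurred in the 100 bp around 19.1% of the 235 nuclear thresholded summits and 1.67% of the 29739 other nuclear pooled summits. It was in 8.73% of all 300-base upstream sequences, which are longer, so that share is not on the same footing. CGAGAC occurred at 20.4%, 2.06% and 8.05%, and ACCGTA at 18.7%, 2.35% and 8.54%. The words were chosen on these peaks, of which the ant-1.1 peak is 1, so the shares describe them and support nothing further. Median GC content also differed, at 42% for the thresholded and 30.5% for the other summits, and its part in the shares was not tested. All 3 words together were present at 4 of the 235 thresholded summits and at 7 of the 29739 others. The joined run GACGCACCGTA was at 1 of each, ant-1.1 being the thresholded one, and in 2 of 19973 upstream sequences.

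Among the paralogues, ant-1.4 had GACGCA as its reverse complement, starting 70 bases before the 5′ end, the same distance as in ant-1.1. It had no pooled summit closer than 677 bp. In the 300 bases upstream of ant-1.2 only ACGCAG was found, 298 bases before the 5′ end, and upstream of ant-1.3 none of these 4 words. The word TATAAA, the core of the TATA box, was absent on both strands from the 300 bases upstream of ant-1.1. Counting either strand, it was present once upstream of each of the others. It lay 25 bases before the 5′ end in ant-1.4, 137 in ant-1.2 and 215 in ant-1.3. In ant-1.4 the match was the reverse complement, TTTATA, so TATAAA itself does not read there on the strand of the gene. On either strand, TATAAA was found in 39.6% of all 300-base upstream sequences. It was also found in the 100 bp around 5.96% of thresholded and 16.2% of other pooled summits. A match is a run of letters and was not tested as a binding site.

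RefSeq gives the same product name, ADP/ATP translocase, to 3 further genes, C47E12.2, F25B4.7 and R07E3.4. Their translated proteins were 44% to 52.6% identical to the 4 ANT proteins. None had a thresholded summit within 1000 bp. F25B4.7, on chromosome V, had a pooled call 757 bp upstream with a signal of 14.4 (rank 24420) and a replicate 1 call 764 bp upstream (signal 10.9, rank 17670). C47E12.2 and R07E3.4 had no call within 1000 bp in either replicate or in the pooled list. Of the 7 genes with this product name, ant-1.1 was thus the 1 with a thresholded peak.

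Other members of the carrier family were compared in the same way. Of 15 named mitochondrial carrier genes, 1 had a thresholded summit within 1000 bp (6.67%, 95% exact binomial interval 0.169 to 31.9), against 1.43% of all genes. It was F01G4.6, annotated as the mitochondrial phosphate carrier, with a signal of 866 (rank 11) at 290 bp upstream, and ranks of 9 in replicate 1 and 16 in replicate 2. This was 1 gene of the 15, and ant-1.1 was chosen with its call known, so nothing is read from F01G4.6 and ant-1.1 together. Among the 15 the next were slc-25A42, annotated as a coenzyme A transporter, with a pooled signal of 40.7 (rank 447), and misc-1. The latter, a 2-oxoglutarate/malate carrier, had 33.7 (rank 907). Between them lay F17E5.2, which is not among the 15 but was found by blastp, with 37.6 (rank 577). A pooled call was present at 12 of the 15 named carriers (80%), against 48.9% of all nuclear protein-coding genes. Over these 12 the median strongest signal was 17.8, against 18.8 over all protein-coding genes with a call. In families found by blastp with the ANT proteins it was 21.1 over 17 genes (E-value below 1e-05) and 31.5 over 5 (below 1e-20). The side of 18.8 on which the median fell thus depended on how the family was drawn up.

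Among partners of the translocators, 1 of 15 genes listed for ATP synthase had a thresholded summit within 1000 bp. The share was 6.67% (95% exact binomial interval 0.169 to 31.9), beside 1.43% of all genes. The list counts mai-1 and mai-2 with the others. The gene with the summit was atp-1, the alpha subunit, with a signal of 1115 (rank 7) at 5 bp upstream. Its ranks were 12 and 3 in replicates 1 and 2. Of 14 genes for importing proteins through the outer and inner membranes, 2 had a thresholded summit (14.3%, interval 1.78 to 42.8). They were ddp-1, a small chaperone of the intermembrane space, with a signal of 123 (rank 90) at 173 bp upstream, and the import receptor gene tomm-20, with 70.8 (rank 173) at 248 bp. No thresholded summit lay within 1000 bp of the 10 genes listed for nucleotide handling. The list includes, but is not limited to, genes for the outer-membrane channel VDAC, adenylate kinases and arginine kinases. A count of 0 allowed a share of up to 30.8%. A weaker pooled call was present at 4 of the 10 (40%), against 48.9% of all nuclear protein-coding genes. The strongest of these was at vdac-1 (signal 29.9, rank 1625). Any pooled call was present at 86.7% of the ATP synthase list and 71.4% of the import list. Over the genes with a pooled call, the median strongest signal was 24.7 for 13 ATP synthase list genes and 26.9 for 10 import genes. It was 19.8 for 4 nucleotide genes, against 18.8 over all protein-coding genes with a call. These lists are short and were written with earlier results known, so the counts are descriptive and were not tested.

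**Figure D3:**
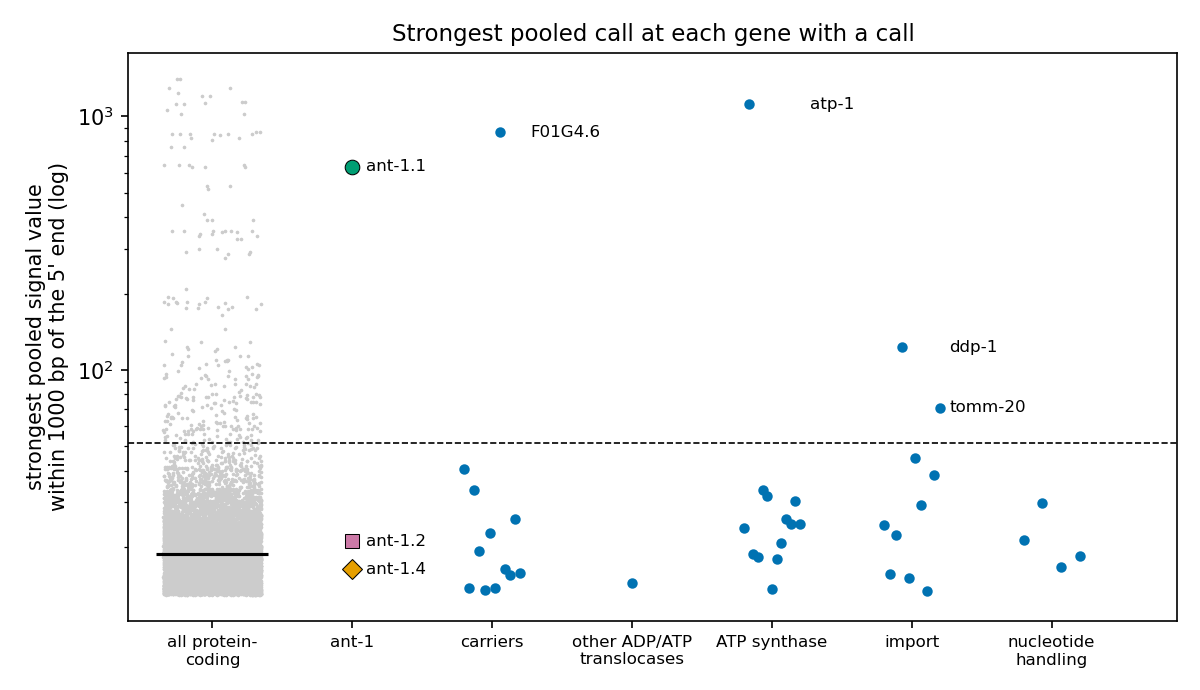
Strongest pooled signal value within 1000 bp of the 5′ end, on a log axis, for each gene that had a call. Grey points are all 9767 protein-coding genes with a call, with their median as a bar. Coloured symbols are the ant-1 genes, and blue points are the genes of the comparison lists. The dashed line is the weakest thresholded peak, 51.5. Named blue points are those with a thresholded summit, and ant-1.3 is missing because it had no pooled call.

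Genes were ranked by how like ant-1.1 they were in the 2 replicates, by the sum of the absolute differences in log10 rank of the strongest upstream call within 1000 bp. Over 2286 genes with such a call in both lists, T27E9.2 and abcf-2 came first at a distance of 0, because they share the ant-1.1 call. The most like gene with a call of its own was rps-26, a ribosomal protein gene of the small subunit. It ranked 32 in replicate 1 and 20 in replicate 2, with a summed difference of 0.0847, a pooled signal of 640 (rank 23) and a pooled summit 390 bp upstream. The ant-1.1 summit was closer to its 5′ end than that, at 58 bp. A thresholded summit on the upstream side was the usual arrangement, found at 264 of the 285 protein-coding genes with a thresholded summit (92.6%).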

How the data were processed

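Calls on build ce11 were used, and ce10 lists were not used here. Per the deposited file notes, the authors called each replicate and the pooled replicates against 1 control, and thresholded the pooled list by IDR. No source used here gives the aligner, peak caller or threshold. The deposited signal value (a caller's unit) was used to rank calls within a list. Because no scale was stated for the q-value column the authors deposited, it was used as a score. Summits were the interval start plus the deposited offset, written 1-based.

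Gene 5′ ends came from Ensembl release 115, which holds 19985 protein-coding genes, 19973 of them nuclear. Product names and the genome came from RefSeq, build WBcel235 (ce11). For each gene the strongest call with its summit within 1000 bp was taken. The search was first tested on simulated data.

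Proteins were translated from the annotated coding sequences, compared by global alignment with BLOSUM62, and identity was counted over the longer protein. No RefSeq protein table was used here, so the carrier family was the hand-written list. Of the names on all lists, timm-22 and timm-50 matched no gene. The genes, lists and words were chosen with earlier results of these data known. Named genes were the 4 genes, protein-coding genes with a 5′ end within 1000 bp of their summits, listed genes with a thresholded summit and the 3 genes most like ant-1.1. Any further gene was picked with its values in view. Binomial intervals for shares of genes are Clopper-Pearson, at 95%. Alternatives changed the distance, the 5′ end, the list, the rank and the replicate. Python 3.11.15, numpy 2.4.6, pandas 2.3.3, scipy 1.17.1, biopython 1.88, matplotlib 3.10.9 and BLAST 2.17.0 were used.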

Additional observations from a re-analysis of the deposited data

How the results depend on the processing

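The count of ant-1 genes with a thresholded summit was 1 of 4 in all 10 alternatives, which changed the distance, the 5′ end, the assignment and the set of calls, including either replicate alone (1 to 1 with a replicate left out). Distances from the start codon and carrier families found by blastp were added after the data were seen. The rank of the ant-1.1 promoter call was 24 at every distance, 20 among nuclear calls and 18 to 35 with a replicate left out. By the q-value field it tied at rank 1 with other calls. The ant-1.2 rank of 7951 became 2327 at 2000 bp, where the call by lbp-6 came in, 8063 by the q-value field, 7925 among nuclear calls and 5297 with replicate 1 alone. The ant-1.3 rank, absent at 1000 bp, was 3452 at 2000 bp and 14416 in replicate 2. The ant-1.4 rank of 18102 became 18113 by the q-value field, 18076 among nuclear calls and 5567 in replicate 1, and it had no value at 500 bp. The carrier count fell to 0 of 15 at 250 bp, was 1 of 26 in a blastp family at an E-value below 1e-05, and was 0 of 8 below 1e-20, which leaves out F01G4.6. It was 1 to 1 with a replicate left out. The ATP synthase count was 1 to 2 with a replicate left out, and the import count was 1 in the strongest 130 calls and 2 to 3 with a replicate left out. The nucleotide count was 0 to 0. No paired analysis was possible because there was 1 group. Read depth was unknown, so a weak or absent call at an ant-1 gene does not show that ZK546.5 was absent.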
